A study of Homo sapiens with 8 samples.

Results

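Integrin and laminin subunit genes were followed in mesenchymal stromal cells before and after freezing. The genes were chosen by name: every integrin alpha or beta subunit and every laminin alpha, beta or gamma chain in the deposited gene table with at least 100 counts summed over the 8 libraries. The name rule matched 38 genes, 6 of which stayed under that minimum (ITGA8, ITGAD, ITGAM, ITGB2, ITGB6 and LAMC3). The remaining 32 of 23354 genes were 15 integrin alpha subunits, 6 integrin beta subunits, 5 laminin alpha chains, 4 laminin beta chains and 2 laminin gamma chains. All 32 also passed the filter on low counts and were tested.

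The cells had been differentiated from the human embryonic stem cell line H9, and RNA was sequenced in 8 libraries, each of a different condition. Fresh cells gave 3 libraries: at 0 h, after 1 h with dimethyl sulfoxide (DMSO, the conventional cryoprotectant) and after 1 h in culture medium. The 2 DMSO-frozen libraries came from cells held for 0 h or 1 h beforehand. Cells frozen in multicomponent osmolyte solutions gave 3 libraries, labelled SMC (held for 2 h), SGC and SGI (1 h each). All libraries came from this 1 line, grown in serum-containing medium on flasks coated with gelatin, which is denatured collagen. Freezing in DMSO used a slower cooling rate than freezing in the osmolyte solutions, and there was no unfrozen library in an osmolyte solution. Solution, cooling rate and freezing therefore cannot be told apart in the osmolyte-frozen libraries. Hold time differed between the groups as well, since no osmolyte-frozen library was held for 0 h. Each condition had 1 library, and nothing in the labels says that libraries came from separate cultures. The p-values therefore measure only the spread between libraries of a kind. That spread can include differences in hold time, DMSO or solution, and what remains may be technical.

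Integrins are receptors made of an alpha and a beta subunit that span the cell membrane and tie the matrix outside the cell to the actin cytoskeleton inside it. The alpha subunit largely sets the ligand: some bind collagen, some laminin, and some the RGD sequence (arginine, glycine, aspartate) of fibronectin and vitronectin. Laminins are cross-shaped trimers of an alpha, a beta and a gamma chain that polymerise into the basement membrane, and stromal cells both secrete them and adhere to them.

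Counts summed to between 41198716 and 51166666 per library. Stromal cell markers were present in every library: NT5E (CD73) at 156 to 257, THY1 (CD90) at 227 to 300 and ENG (CD105) at 194 to 350.1 CPM (counts scaled to library size, with edgeR's TMM factors). Of 8 such markers, 5 were lower and 1 higher in osmolyte-frozen than in DMSO-frozen cells, and their summed level was 1691 to 1829 CPM against 2376 to 2404 CPM, with 2459 to 2616 CPM in fresh cells. Markers of other cell types were low: 8 leukocyte markers summed to 5.73 to 8.49 CPM, with CD3E at 0 and PTPRC at most 0.174 CPM, and 6 platelet markers to 2.67 to 4.57 CPM, with GP9 and PPBP at 0. The 8 endothelial markers summed to 46.1 to 56.2 CPM in fresh, 65.1 to 69.1 CPM in DMSO-frozen and 58.9 to 71.3 CPM in osmolyte-frozen libraries, most of it from TEK, with CDH5 at most 1.21 CPM. Of the 7 tested, 1 was higher and 2 lower in osmolyte-frozen than in DMSO-frozen cells. ERG was at 4.41 to 6.67 CPM in fresh, 9.39 to 10.7 CPM in DMSO-frozen and 16.4 to 21.8 CPM in osmolyte-frozen libraries. The 8 epithelial markers summed to 2.24 to 3.27 CPM in fresh, 3.08 to 3.63 CPM in DMSO-frozen and 3.83 to 4.33 CPM in osmolyte-frozen libraries. In the same order, the 8 markers of pluripotent cells summed to 16.1 to 17.7, 17.7 to 17.8 and 21.0 to 26.1 CPM. Of the 6 pluripotency markers tested, 5 were higher and 0 lower in osmolyte-frozen than in fresh cells, and 2 and 0 against DMSO-frozen cells. Against fresh cells, 2 of the 8 stromal markers were higher and 6 lower in osmolyte-frozen cells. The nuclear RNAs MALAT1 and NEAT1 took 0.846% to 0.948% of counts in osmolyte-frozen libraries, 0.393% to 0.452% in DMSO-frozen and 0.472% to 0.567% in fresh ones. The part of these measures in the results below was not tested.

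In osmolyte-frozen against DMSO-frozen cells, 5 of the 32 subunit genes were higher and 11 lower at an adjusted p under 0.05 (edgeR quasi-likelihood, Benjamini-Hochberg over 15564 genes). Those higher were ITGA11, ITGB4, ITGB5, LAMB1 and LAMB2, and those lower included ITGA2, ITGA4, ITGA5, ITGA6, ITGAV, ITGB1, LAMA3, LAMA4, LAMB3 and LAMC1. This is 15.6% higher and 34.4% lower, where 13.6% of all tested genes were higher and 16.5% lower, so the share that rose was near the background and the share that fell was above it. The members' median log2 change was -0.13, against 0.04 over all genes tested. Among the 8304 tested genes within the members' range of length (2771 to 11426 bases), 12.1% were higher and 24.6% lower. With library totals in place of TMM scaling, 56.4% of all called genes were higher against 45.3%, and the members' counts were 6 higher and 11 lower. The count of members higher was 1 when the 0 h DMSO-frozen library was left out and 3 without the SMC library; a lone DMSO-frozen library is assumed to vary like the other groups. In bulk RNA, fewer cells of a type and less RNA per cell cannot be told apart.

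In DMSO-frozen against fresh cells, 2 of the 32 genes were higher (ITGA11 and ITGB5) and 3 lower (ITGA3 and LAMB3 among them). That is 6.25% and 9.38% of members, where 1.25% of all tested genes were higher and 0.617% lower. The median log2 change was 0.07 over members and -0.01 over all genes. LAMB3 stayed past the threshold without each library in turn, and ITGA11, ITGB5 and ITGA3 did not. The count of members higher was 0 without either DMSO-frozen library or without fresh 1 h medium, and 1, which was neither ITGA11 nor ITGB5, without fresh 1 h DMSO.

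In osmolyte-frozen against fresh cells, 10 of the 32 genes were higher and 13 lower, or 31.2% and 40.6%, where 19.1% of all tested genes were higher and 21.0% lower. All 11 laminin chains passed the threshold, 4 higher and 7 lower, and 12 of 21 integrin subunits did, 6 in each direction. Within the members' range of length, 19.5% of tested genes were higher and 27.1% lower. The median log2 change was -0.19 over members and 0.02 over all genes. The osmolyte-frozen and the DMSO-frozen libraries are compared with the same 3 fresh libraries, and the 2 comparisons are not independent of each other. Over the 3 comparisons, ITGA11, ITGB5 and LAMB3 were among those called in each, which held for 4 of the 32 members against 1.15% of all tested genes. A call in at least 1 comparison was made for 24 members, where 45.2% of all tested genes had one, and 8 had none (ITGA2B, ITGA9, ITGA10, ITGAE, ITGAL, ITGB3, ITGB7 and ITGB8). The spans of 10 of the 32 genes overlap another gene of the table. Among the overlapping genes only PELO, CERKL, METTL7B and GSG2 had any counts. They overlap ITGA1, ITGA4, ITGA7 and ITGAE. Reads in shared bases could have been counted for either gene or for neither, since the counting settings were not stated.

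**Figure D1:**
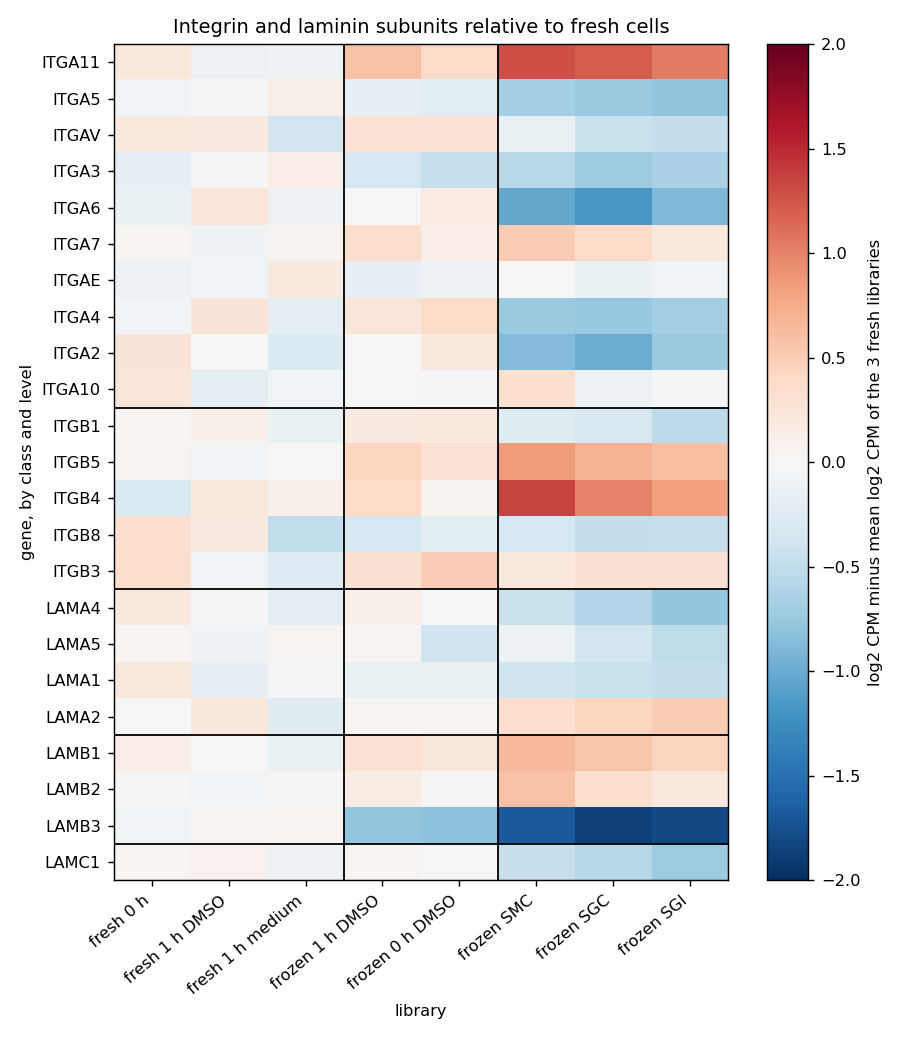
Heat map of 23 members with a mean of at least 5 CPM over the 8 libraries, as log2 CPM minus the mean log2 CPM of the 3 fresh libraries; rows are genes by class and level, columns are libraries, red is higher and blue lower than in fresh cells. LAMB3 is darkest blue and ITGA11 and ITGB4 darkest red in the 3 osmolyte-frozen columns, and the DMSO-frozen columns are paler in the same rows.

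Levels were compared between genes in the authors' RPKM, which divide reads by gene length and by library size. ITGB1, the beta subunit shared by most matrix-binding integrins, was the most abundant member at 605.8 to 1057 RPKM, and it made up 95.5% to 97.9% of integrin beta RPKM in the 8 libraries. LAMB1 followed at 158 to 268 RPKM and led the laminin beta chains, LAMC1 led the gamma chains at 67.5 to 122 RPKM, and LAMA4 led the alpha chains at 35.9 to 70.5 RPKM. The 3 form a laminin known from vessels, fat and muscle. Among integrin alpha subunits, ITGA5 and ITGA11 led, and their order differed between libraries: ITGA5 was at 138 to 155 RPKM and ITGA11 at 78.4 to 99.9 RPKM in fresh cells, while in osmolyte-frozen cells ITGA11 was at 175 to 201 RPKM and ITGA5 at 83.6 to 87.8 RPKM. At the other end, ITGA9, LAMB4 and ITGAL stayed at most at 0.131 RPKM in every library.

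LAMA3 and LAMB3, chains of an epithelial laminin that anchors the basal cells of skin to the dermis, were lower in osmolyte-frozen cells than in either other group. In each case below, fresh libraries are listed as 0 h, 1 h DMSO and 1 h medium, DMSO-frozen as 0 h and 1 h, and osmolyte-frozen as SMC, SGC and SGI. LAMB3 stood at 16.3, 17.8 and 17.7 CPM in the fresh libraries, 9.78 and 9.97 CPM in the DMSO-frozen libraries and 5.38, 4.73 and 4.96 CPM in the osmolyte-frozen libraries. The 3 groups did not overlap and stepped down from fresh to DMSO-frozen to osmolyte-frozen. LAMB3 (chromosome 1 from 209788218 to 209825820 in hg19) was 3.44-fold lower in osmolyte-frozen than in fresh cells (log2 change -1.78, SE 0.11, edgeR adjusted p = 4.05e-10), 1.97-fold lower than in DMSO-frozen cells (log2 change -0.97, SE 0.12, edgeR adjusted p = 9.89e-06) and 1.75-fold lower in DMSO-frozen than in fresh cells (log2 change -0.81, SE 0.11, edgeR adjusted p = 0.000485).

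LAMA3, the alpha chain of that laminin, was less abundant, at 0.123 to 0.410 RPKM against 0.689 to 2.80 RPKM for LAMB3. LAMA3 read 5.32, 5.78 and 4.71 CPM in fresh, 4.46 and 6.21 CPM in DMSO-frozen and 2.59, 2.01 and 3.13 CPM in osmolyte-frozen libraries. The osmolyte-frozen libraries lay below all others, and the DMSO-frozen ones lay on either side of the fresh range. LAMA3 (chromosome 18 from 21269562 to 21535029) was 2.04-fold lower in osmolyte-frozen than in fresh cells (log2 change -1.03, SE 0.18, edgeR adjusted p = 0.000204) and 2.06-fold lower than in DMSO-frozen cells (log2 change -1.04, SE 0.20, edgeR adjusted p = 0.000759), and it was not called between DMSO-frozen and fresh cells (log2 change 0.01, edgeR adjusted p = 0.983). Of the 8 epithelial markers, 4 were tested, and of these 0 were lower in osmolyte-frozen cells in either comparison and 2 were higher than in fresh cells. EPCAM was at 1.76 to 2.19 CPM in osmolyte-frozen libraries, 1.49 to 1.58 CPM in DMSO-frozen and 0.805 to 1.16 CPM in fresh ones. In the same order, CDH1 was at 0.479 to 1.13, 0.276 to 0.656 and 0.179 to 0.437 CPM. CLDN4 was at 0.714 to 0.914, 0.513 to 0.743 and 0.313 to 0.728 CPM. CLDN7, a claudin of epithelial tight junctions, went the other way, at 0.447 to 0.538, 0.592 to 0.612 and 0.728 to 0.955 CPM, and was not called. ESRP1, GRHL2 and OVOL1, regulators of the epithelial state, were each at most at 0.0485 CPM.

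The bases ahead of members' RefSeq starts (GRCh38.p14) were searched for the motifs of the transcription factors AP-1, TEAD and SP1, and the AP-1 matches in LAMA3 and LAMB3 are shown. Windows of 250 bases before a start were found for 23 of the 32 members, 30 windows in all. The AP-1 motif (TGACTCA, or TGAGTCA on the other strand) was in 2 of these windows, a LAMB3 window and the LAMA3 window. That is 6.67% of member windows, against 4.2% of all 35116 windows of that length, and the shares were not tested. The other LAMB3 windows held no match. The LAMB3 stretch runs at chr1:209651395-209651624 on the minus strand, lies in an intron of longer LAMB3 transcripts in the GENCODE annotation and holds the motif, in capitals, 67 bases before the start. The LAMA3 window has 2 matches, 125 and 69 bases before the start, at chr18:23872884-23872912 and chr18:23872940-23872968 on the plus strand. GENCODE places both within an annotated exon. A match is a run of letters and not evidence of binding, and gene counts do not show which start was in use.
LAMB3: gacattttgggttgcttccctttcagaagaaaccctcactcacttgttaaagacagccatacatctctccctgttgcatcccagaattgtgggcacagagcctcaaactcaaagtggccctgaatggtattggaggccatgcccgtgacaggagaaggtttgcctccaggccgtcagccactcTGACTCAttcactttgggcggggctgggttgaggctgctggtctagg
LAMA3 site 125 bases before the start: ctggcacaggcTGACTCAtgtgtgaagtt
LAMA3 site 69 bases before the start: ccttcctcaccTGAGTCAggcaggcccgg
The TEAD motif (GGAATG, or CATTCC on the other strand) was in 4 of the 30 member windows and 11.9% of all windows, and the SP1 motif (GGGCGG, or CCGCCC) in 15 and 42.6%. None of the 3 motifs is contained in another.

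The laminin chains with the most abundant RNA in their class did not move together. LAMC1, the gamma chain of most laminins, fell: the level of LAMC1 was 1331, 1363 and 1183 CPM in fresh, 1299 and 1328 CPM in DMSO-frozen and 938, 866 and 781 CPM in osmolyte-frozen libraries. All 3 osmolyte-frozen libraries were below every other library, while fresh and DMSO-frozen ones overlapped. LAMC1 (chromosome 1 from 182992595 to 183114727) was 1.52-fold lower than in DMSO-frozen cells (log2 change -0.61, SE 0.09, edgeR adjusted p = 6.92e-05) and lower than in fresh cells by a like factor (log2 change -0.58, edgeR adjusted p = 1.51e-05). LAMA4, the alpha chain of endothelial and mesenchymal basement membranes, also fell. LAMA4 read 771, 663 and 589 CPM in fresh, 671 and 723 CPM in DMSO-frozen and 494, 448 and 393 CPM in osmolyte-frozen libraries. Again the 3 lowest libraries were the osmolyte-frozen ones. LAMA4 was 1.57-fold lower than in DMSO-frozen cells (log2 change -0.65, SE 0.11, edgeR adjusted p = 0.000384) and 1.52-fold lower than in fresh cells (edgeR adjusted p = 0.000159).

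LAMB1 and LAMB2 went the other way. LAMB1, the beta chain of most laminins, was higher in osmolyte-frozen cells: the level of LAMB1 was 1679.8, 1517 and 1397 CPM in fresh, 1779.7 and 1871 CPM in DMSO-frozen and 2398, 2232 and 2079 CPM in osmolyte-frozen libraries. The values of the 3 groups did not overlap, with the fresh libraries lowest and the osmolyte-frozen highest. LAMB1 (chromosome 7 from 107564246 to 107643804) was 1.46-fold higher than in fresh cells (log2 change 0.55, SE 0.08, edgeR adjusted p = 3.15e-05) and 1.23-fold higher than in DMSO-frozen cells (log2 change 0.29, SE 0.09, edgeR adjusted p = 0.0199), and it was not called between DMSO-frozen and fresh cells (log2 change 0.25, edgeR adjusted p = 0.195). LAMB2, the beta chain of neuromuscular and kidney basement membranes, showed a smaller difference from fresh cells. LAMB2 read 368, 349.8 and 368 CPM in fresh, 355 and 400.3 CPM in DMSO-frozen and 544, 454 and 418 CPM in osmolyte-frozen libraries. All 3 osmolyte-frozen libraries were above the rest, with SMC above the other two. LAMB2 was 1.30-fold higher than in fresh cells (log2 change 0.38, SE 0.09, edgeR adjusted p = 0.00216) and 1.25-fold higher than in DMSO-frozen cells (log2 change 0.32, SE 0.10, edgeR adjusted p = 0.0206). The differences from DMSO-frozen cells were small: LAMB1 was not called without the SMC library (edgeR adjusted p = 0.066), without the 1 h DMSO-frozen library (0.0654) or without the 0 h one (0.172), over a range of 0.00414 to 0.172 in its 12 alternatives. LAMB2 was not called without SMC (edgeR adjusted p = 0.0874), without the 0 h DMSO-frozen library (0.236) or with a term for libraries held 0 h (0.0699; this alternative was chosen after seeing the data), over a range of 0.00377 to 0.236.

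Within a library these opposite moves changed the balance of chains, which does not depend on how libraries are scaled. LAMB1 over LAMC1 in RPKM was 1.70, 1.502 and 1.59 in fresh, 1.85 and 1.902 in DMSO-frozen and 3.45, 3.48 and 3.59 in osmolyte-frozen libraries. The groups did not overlap, and the step was larger between DMSO-frozen and osmolyte-frozen libraries. LAMA4 over LAMC1 was 0.612, 0.513 and 0.526 in fresh, 0.545 and 0.574 in DMSO-frozen and 0.555, 0.546 and 0.531 in osmolyte-frozen libraries, and the groups overlapped. These ratios are described without a test. LAMB1 stood at 3.77 to 4.99 times the RPKM of LAMB2 in all 8 libraries.

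**Figure D2:**
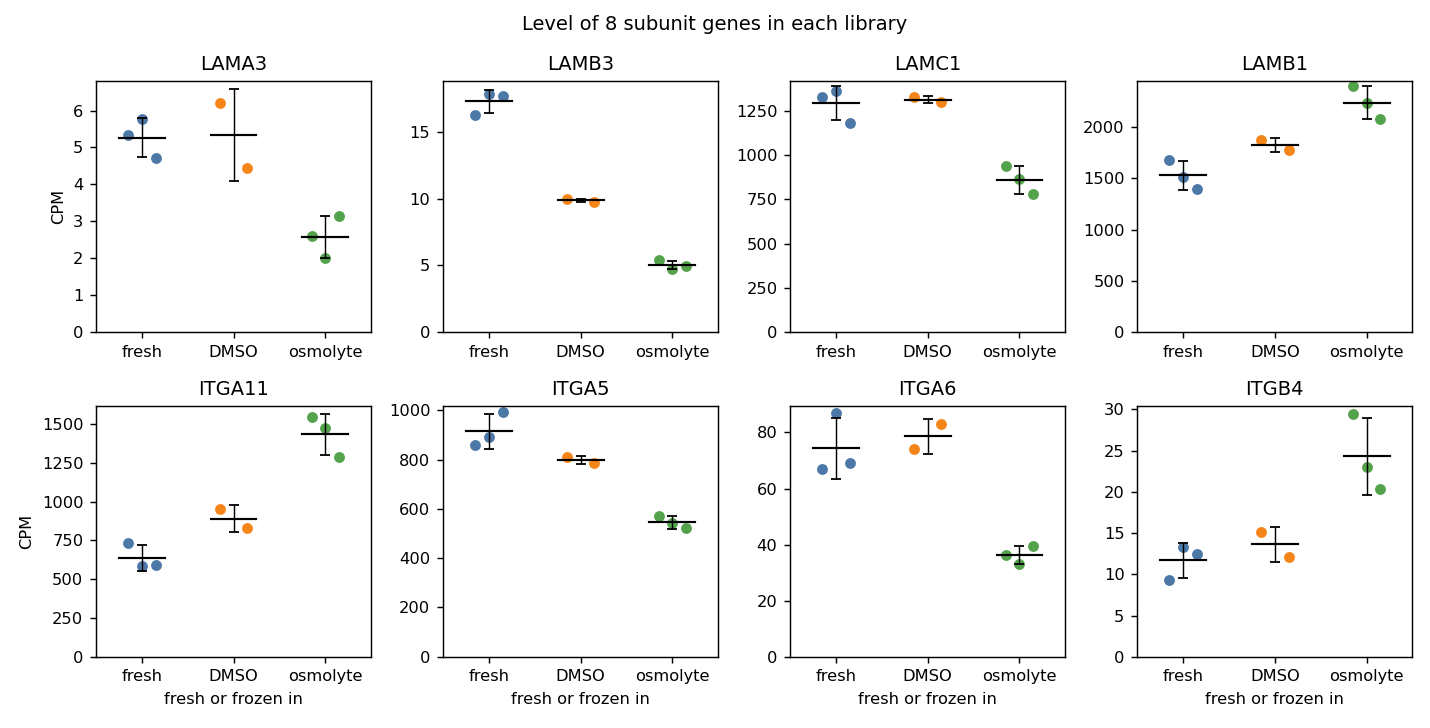
Level in CPM of 8 subunit genes in each library, 1 panel per gene with its own axis from 0; points are libraries (3 fresh in blue, 2 frozen in DMSO in orange, 3 frozen in osmolyte solutions in green), horizontal bars are group means and vertical bars ± 1 SD. LAMB3 falls and ITGA11 rises from fresh to DMSO-frozen to osmolyte-frozen, and LAMB1 is highest in osmolyte-frozen libraries, while LAMA3, LAMC1, ITGA5, ITGA6 and ITGB4 set the osmolyte-frozen points apart from the rest.

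Another 4 laminin chains were called only between osmolyte-frozen and fresh cells. LAMA1, an alpha chain of early embryonic basement membranes, was 1.36-fold lower (edgeR adjusted p = 0.00441): the level of LAMA1 was 12.8, 9.82 and 10.8 CPM in fresh, 10.1 and 10.1 CPM in DMSO-frozen and 8.42, 8.13 and 7.92 CPM in osmolyte-frozen libraries. The 3 lowest values were those of the osmolyte-frozen libraries. LAMA2, the alpha chain of muscle and nerve basement membranes, was 1.33-fold higher (edgeR adjusted p = 0.0261). LAMA2 read 4.83, 5.59 and 4.07 CPM in fresh, 4.97 and 4.94 CPM in DMSO-frozen and 6.02, 6.43 and 6.83 CPM in osmolyte-frozen libraries. The osmolyte-frozen libraries were the 3 highest, but the call was lost without SGC, SGI, fresh 0 h or fresh 1 h medium, with edgeR adjusted p from 0.0137 to 0.108 over 13 alternatives. LAMA5, the widespread adult epithelial alpha chain, was 1.25-fold lower (edgeR adjusted p = 0.0468) with libraries that overlapped between the sides, and its call was lost in the same 4 settings (range 0.00566 to 0.173). LAMB4, a little-studied beta chain, had counts of 6, 12 and 10 in fresh, 10 and 18 in DMSO-frozen and 38, 26 and 26 in osmolyte-frozen libraries. It was higher than in fresh cells (log2 change 1.66, SE 0.46, edgeR adjusted p = 0.00748), but at 0.566 to 0.930 CPM its level in osmolyte-frozen libraries was still low, and the exact Poisson interval of the SGI library alone ran from 0.301 to 0.967 CPM.

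LAMB1 and LAMB4 lie 20.2 kb apart on chromosome 7 and were both higher in osmolyte-frozen than in fresh cells.

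Among collagen receptors in osmolyte-frozen cells, ITGA11 was higher and ITGA2 lower than in either other group, and ITGA1 was higher than in fresh cells. ITGA11 pairs with ITGB1 to bind fibrillar collagen and is typical of fibroblasts and stromal cells. ITGA11 stood at 733, 588 and 593 CPM in the fresh libraries, 831 and 951 CPM in the DMSO-frozen libraries and 1543, 1477 and 1286 CPM in the osmolyte-frozen libraries. The groups did not overlap and rose in steps. ITGA11 (chromosome 15 from 68594042 to 68724492) was 2.25-fold higher than in fresh cells (log2 change 1.17, SE 0.10, edgeR adjusted p = 7.17e-08), 1.61-fold higher than in DMSO-frozen cells (log2 change 0.69, SE 0.11, edgeR adjusted p = 0.000192) and 1.40-fold higher in DMSO-frozen cells than in fresh ones (log2 change 0.48, SE 0.10, edgeR adjusted p = 0.0212). The last of these was not called without the 1 h DMSO-frozen library (edgeR adjusted p = 0.286), the 0 h one (0.0632), fresh 1 h DMSO (0.072) or fresh 1 h medium (0.0718), over a range of 0.00054 to 0.286 in 12 alternatives.

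ITGA1, which favours basement membrane collagen, was weakly expressed: the level of ITGA1 was 1.52, 1.14 and 0.825 CPM in fresh, 2.25 and 2.23 CPM in DMSO-frozen and 3.67, 3.71 and 2.92 CPM in osmolyte-frozen libraries. It was 2.94-fold higher in osmolyte-frozen than in fresh cells (log2 change 1.55, SE 0.22, edgeR adjusted p = 2.4e-05), with no overlap. Against DMSO-frozen cells its log2 change was 0.61 (edgeR adjusted p = 0.0554), and between DMSO-frozen and fresh cells 0.94 (edgeR adjusted p = 0.0615), neither of which passed. The span of ITGA1 overlaps PELO, a gene of ribosome rescue, which read 23.5 to 27.2 CPM over the 8 libraries, and reads in their shared bases cannot be assigned without the counting rule. For ITGA2, a collagen receptor of epithelia and platelets, values of 45.3, 38.2 and 31.3 CPM were measured in fresh, 43.3 and 38.1 CPM in DMSO-frozen and 20.7, 19.1 and 22.6 CPM in osmolyte-frozen libraries. No other library was as low as the osmolyte-frozen ones, and ITGA2 was 1.96-fold lower than in DMSO-frozen cells (log2 change -0.97, SE 0.13, edgeR adjusted p = 6.8e-05) and 1.84-fold lower than in fresh cells (edgeR adjusted p = 2.96e-05). ITGA1 and ITGA2 lie 35.7 kb apart on chromosome 5 (52084136 to 52249485 and 52285156 to 52390609) and moved in opposite directions against fresh cells. ITGA10, the cartilage collagen receptor, was not called in any comparison and read 13.2 to 18.7 CPM. By RPKM the 4 collagen-binding subunits made up 28.95, 23.7 and 23.7% of integrin alpha in fresh, 32.4 and 34.6% in DMSO-frozen and 53.1, 54.4 and 51.5% in osmolyte-frozen libraries, nearly all of it ITGA11.

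ITGA5 and ITGAV, the abundant alpha subunits that bind RGD sequences, were lower in osmolyte-frozen than in DMSO-frozen cells. ITGA5 pairs with ITGB1 as the main fibronectin receptor. ITGA5 read 858, 891 and 995 CPM in fresh, 787 and 811 CPM in DMSO-frozen and 572, 544 and 521 CPM in osmolyte-frozen libraries. Osmolyte-frozen values were far below the rest, and the DMSO-frozen libraries were just below the fresh ones. ITGA5 (chromosome 12 from 54789045 to 54813050) was 1.68-fold lower than in fresh cells (log2 change -0.75, SE 0.07, edgeR adjusted p = 4.05e-07) and 1.46-fold lower than in DMSO-frozen cells (log2 change -0.55, SE 0.08, edgeR adjusted p = 9.27e-05), and was not called in DMSO-frozen against fresh cells (log2 change -0.20, SE 0.08, edgeR adjusted p = 0.32). The ratio of ITGA5 to ITGA11 RPKM was 1.38, 1.79 and 1.98 in fresh, 1.12 and 1.00 in DMSO-frozen and 0.437, 0.434 and 0.477 in osmolyte-frozen libraries, so every osmolyte-frozen library was below every other library.

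ITGAV, the alpha subunit of vitronectin receptors and of activators of latent TGF-beta, varied among fresh libraries: the level of ITGAV was 619, 608 and 417 CPM in fresh, 657 and 658 CPM in DMSO-frozen and 486, 395 and 386 CPM in osmolyte-frozen libraries. The fresh 1 h medium library lay within the osmolyte-frozen range, and the DMSO-frozen libraries were the highest of the 8. ITGAV was 1.56-fold lower in osmolyte-frozen than in DMSO-frozen cells (log2 change -0.64, SE 0.17, edgeR adjusted p = 0.0176) and not called against fresh cells (edgeR adjusted p = 0.0744). The call was lost without SGC (edgeR adjusted p = 0.0656), SGI (0.0633), or the 1 h (0.0859) or 0 h (0.106) DMSO-frozen library, and with a term for libraries held 0 h (0.0567), over a range of 1.71e-05 to 0.106 in 12 alternatives. Its share of integrin alpha RPKM, with ITGA5 and the platelet subunit ITGA2B, was 53.5, 55.9 and 55.3% in fresh, 51.3 and 49.3% in DMSO-frozen and 34.1, 33.1 and 34.5% in osmolyte-frozen libraries.

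The beta partners of ITGAV split. ITGB5, a vitronectin receptor subunit, was higher in both frozen groups: the level of ITGB5 was 80.8, 73.9 and 77.8 CPM in fresh, 94.4 and 105 CPM in DMSO-frozen and 139.5, 125 and 118 CPM in osmolyte-frozen libraries. The groups rose in steps without overlap. ITGB5 was 1.65-fold higher in osmolyte-frozen than in fresh cells (log2 change 0.72, SE 0.08, edgeR adjusted p = 1.05e-06), 1.28-fold higher than in DMSO-frozen cells (log2 change 0.36, SE 0.09, edgeR adjusted p = 0.00489) and 1.28-fold higher in DMSO-frozen cells than in fresh ones (log2 change 0.36, SE 0.09, edgeR adjusted p = 0.0341). Without the 0 h DMSO-frozen library the difference from DMSO-frozen cells was not called (edgeR adjusted p = 0.103, range 0.000861 to 0.103). The difference between DMSO-frozen and fresh cells was not called without either DMSO-frozen library, fresh 1 h DMSO or fresh 1 h medium (edgeR adjusted p from 0.0554 to 0.346 in these 4, with 0.0045 the lowest of 12 alternatives). ITGAV over ITGB5 in RPKM was 3.58, 3.84 and 2.503 in fresh, 3.25 and 2.94 in DMSO-frozen and 1.63, 1.48 and 1.53 in osmolyte-frozen libraries. ITGB3, which also pairs with the platelet subunit ITGA2B, and ITGB8, which binds latent TGF-beta, were not called in any comparison. ITGB3 read 4.51 to 7.65 CPM, and ITGB8 17.7 to 31.1 CPM, with both of these extremes of ITGB8 in fresh libraries.

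**Figure D3:**
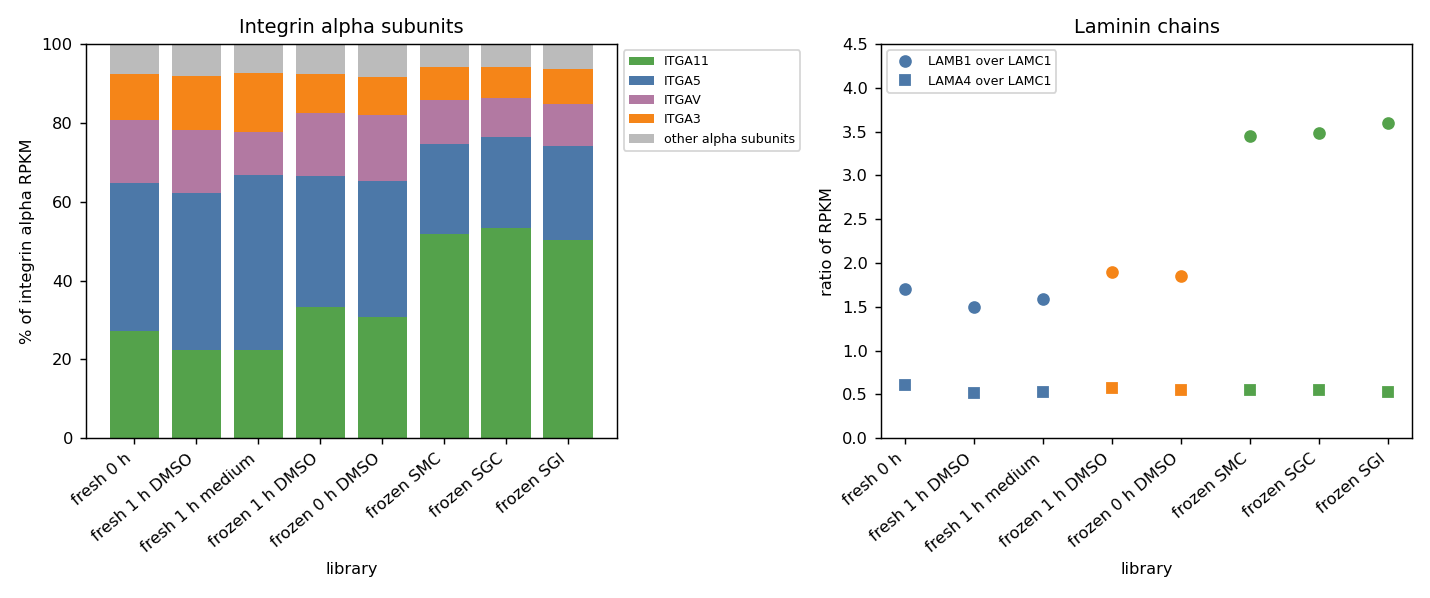
Left, share of summed integrin alpha RPKM taken by ITGA11, ITGA5, ITGAV, ITGA3 and the other alpha subunits in each library, in percent; right, ratio of LAMB1 to LAMC1 RPKM (circles) and of LAMA4 to LAMC1 RPKM (squares), coloured by group (blue fresh, orange frozen in DMSO, green frozen in osmolyte solutions). By RPKM, ITGA11 takes 50.2% to 53.3% in the 3 osmolyte-frozen libraries and less than ITGA5 in the other 5, which is not so by counts in the DMSO-frozen ones, and LAMB1 over LAMC1 is 3.45 to 3.59 there, above all other libraries.

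Of the receptors for laminin itself, ITGA3 and ITGA6 were lower, and ITGA7 and ITGB4 higher, than in fresh cells after osmolyte freezing. ITGA6 pairs with ITGB1 or, in the hemidesmosomes of epithelia, with ITGB4. ITGA6 stood at 67.1, 86.9 and 69.0 CPM in the fresh libraries, 82.9 and 74.2 CPM in the DMSO-frozen libraries and 36.3, 33.0 and 39.5 CPM in the osmolyte-frozen libraries. Values after osmolyte freezing were well below all others, whose 2 groups overlapped. ITGA6 (chromosome 2 from 173292314 to 173371181) was 2.17-fold lower than in DMSO-frozen cells (log2 change -1.12, SE 0.11, edgeR adjusted p = 2.01e-06) and 2.05-fold lower than in fresh cells (log2 change -1.04, SE 0.10, edgeR adjusted p = 5.19e-07). For ITGB4, whose known alpha partner is ITGA6, values of 9.35, 13.3 and 12.4 CPM were measured in fresh, 12.1 and 15.2 CPM in DMSO-frozen and 29.5, 23.0 and 20.4 CPM in osmolyte-frozen libraries. The osmolyte-frozen libraries were the 3 highest, and ITGB4 (chromosome 17 from 73717516 to 73753899) was 2.08-fold higher than in fresh cells (log2 change 1.05, SE 0.16, edgeR adjusted p = 0.000212) and 1.78-fold higher than in DMSO-frozen cells (log2 change 0.83, SE 0.18, edgeR adjusted p = 0.00414). Without the 0 h DMSO-frozen library the latter was not called (edgeR adjusted p = 0.074, range 1.11e-05 to 0.074 over 12 alternatives). ITGA6 over ITGB4 in RPKM was 7.50, 6.82 and 5.81 in fresh, 7.14 and 5.12 in DMSO-frozen and 1.29 to 2.02 in osmolyte-frozen libraries, so the excess of ITGA6 over its partner narrowed.

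ITGA3, a receptor for the laminins that contain LAMA3 or LAMA5, was the most abundant laminin-binding subunit by RPKM. ITGA3 read 319, 365 and 394 CPM in fresh, 259 and 284 CPM in DMSO-frozen and 245, 217 and 229 CPM in osmolyte-frozen libraries. The fresh libraries were the 3 highest and the frozen groups did not overlap. ITGA3 was 1.56-fold lower in osmolyte-frozen than in fresh cells (log2 change -0.64, SE 0.08, edgeR adjusted p = 8.48e-06) and 1.32-fold lower in DMSO-frozen than in fresh cells (log2 change -0.40, SE 0.09, edgeR adjusted p = 0.0288), and it was not called between osmolyte-frozen and DMSO-frozen cells (log2 change -0.24, SE 0.09, edgeR adjusted p = 0.0588). The difference between DMSO-frozen and fresh cells was not called in a fit of these 2 groups alone (edgeR adjusted p = 0.0573), without either DMSO-frozen library (0.119 and 0.394), without fresh 1 h DMSO (0.0692) or without fresh 1 h medium (0.0826), over a range of 0.00218 to 0.394. ITGA7, the laminin receptor of muscle, was 1.29-fold higher than in fresh cells (edgeR adjusted p = 0.0024): the level of ITGA7 was 39.6, 36.2 and 40.5 CPM in fresh, 42.4 and 49.2 CPM in DMSO-frozen and 54.9, 50.5 and 44.8 CPM in osmolyte-frozen libraries. Osmolyte-frozen values were above all fresh ones and overlapped with the DMSO-frozen ones.

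The common partner of these alpha subunits, ITGB1, was lower in osmolyte-frozen cells. ITGB1 stood at 5370.0, 5589.6 and 4749 CPM in the fresh libraries, 6042 and 5919 CPM in the DMSO-frozen libraries and 4395, 4191 and 3631 CPM in the osmolyte-frozen libraries. The DMSO-frozen libraries were the highest and the osmolyte-frozen ones the lowest. ITGB1 (chromosome 10 from 33189246 to 33247293) was 1.47-fold lower than in DMSO-frozen cells (log2 change -0.55, SE 0.09, edgeR adjusted p = 0.000227) and 1.29-fold lower than in fresh cells (edgeR adjusted p = 0.00194), and was not called between DMSO-frozen and fresh cells (log2 change 0.19, SE 0.09, edgeR adjusted p = 0.39). Summed integrin beta RPKM over summed integrin alpha RPKM was 2.4999, 2.65 and 2.25 in fresh, 2.81 and 2.59 in DMSO-frozen and 1.895, 1.94 and 1.82 in osmolyte-frozen libraries.

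ITGA4, which binds VCAM1 and fibronectin, stood out among the subunits best known from blood cells. ITGA4 read 29.04, 36.0 and 26.4 CPM in fresh, 39.6 and 35.8 CPM in DMSO-frozen and 18.1, 17.9 and 18.6 CPM in osmolyte-frozen libraries. The osmolyte-frozen libraries lay close together below all the rest, and ITGA4 (chromosome 2 from 182321619 to 182402468) was 2.07-fold lower than in DMSO-frozen cells (log2 change -1.05, SE 0.11, edgeR adjusted p = 2.33e-06) and 1.68-fold lower than in fresh cells (edgeR adjusted p = 1.36e-05). ITGAX, a leukocyte complement receptor subunit, passed narrowly as 1.49-fold higher than in fresh cells (edgeR adjusted p = 0.0465), at 1.34, 1.73 and 1.26 CPM in fresh, 1.54 and 1.57 CPM in DMSO-frozen and 2.01, 1.92 and 2.52 CPM in osmolyte-frozen libraries. Osmolyte-frozen values were the 3 highest, but 9 of 13 alternatives ended the call (edgeR adjusted p from 0.0353 to 0.185), among them DESeq2, no filter, the fit of 2 groups, the term for libraries held 0 h, and leaving out any osmolyte-frozen library, fresh 0 h or fresh 1 h medium. The rest were not called in any comparison. ITGAE, the partner of ITGB7 on mucosal lymphocytes, read 18.9 to 24.4 CPM, and ITGAL, ITGB7, ITGA9 and ITGA2B each stayed at or under 1.55 CPM in every library. At such levels the counts set wide bounds: the exact 95% Poisson interval of ITGA9 in the SGC library, with 6 counts, ran from 0.0276 to 0.391 CPM.

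**Figure D4:**
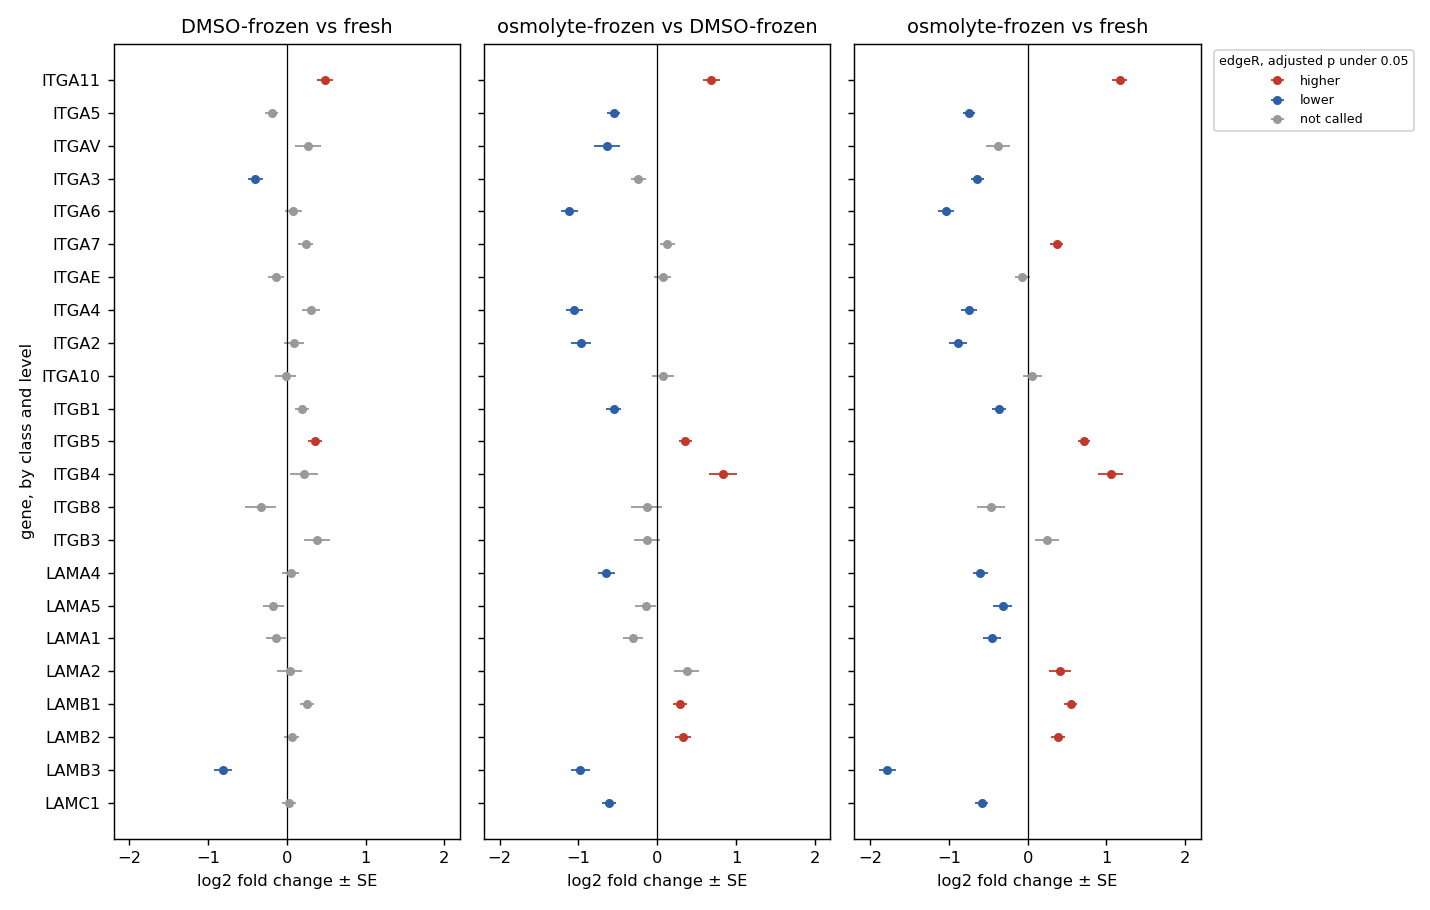
log2 fold change with its SE for 23 members with a mean of at least 5 CPM, 1 panel per comparison, from the edgeR fit of 3 groups; red and blue points passed an adjusted p under 0.05 as higher or lower, grey points did not. Few genes pass in DMSO-frozen against fresh cells, and LAMB3 is furthest left in osmolyte-frozen against fresh cells, at -1.78.

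Conditions with 1 library each were set side by side without a test, as log2 ratios with a prior count of 2, for the 24 members with a mean of at least 5 CPM. A gap of 1.5-fold was used to count differences, a rule chosen after the data were seen. In fresh cells, 1 h with DMSO against 1 h in medium put 1 member past that gap, ITGB8, higher with DMSO by 0.67 on the log2 scale, where 2.08% of all 10700 genes of that level were past it. Between 1 h in medium and 0 h, 2 were, ITGB8 at -0.81 and ITGB3 at -0.62, against 1.67% of genes. Freezing with 1 h in DMSO on both sides put 3 past it, among them LAMB3 at -0.84 and ITGA11 at 0.69, against 1.77% of genes. At 0 h on both sides 2 were past it, LAMB3 at -0.73 among them, against 1.71% of genes. ITGA11 was at 0.18 in that pair, and ITGB5 at 0.22 there and at 0.50 in the 1 h pair, so both were closer to fresh cells at 0 h. The libraries of both pairs are also those of the comparison of DMSO-frozen with fresh cells. A hold of 1 h against 0 h before freezing in DMSO put 0 past it, where 0.477% of genes were.

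Among the osmolyte solutions 0 of the 24 members were 1.5-fold apart in any pair. The background was 0.888% of genes for SMC against SGC, 1.03% for SMC against SGI and 0.308% for SGC against SGI. The widest gaps were ITGA10, 0.42 higher in SMC than in SGC, ITGB4, 0.53 higher in SMC than in SGI, and ITGA6, at -0.26 in SGC against SGI, each on the log2 scale. SMC had the highest of the 3 values for 22 of all 32 members, and for 41.3% of all tested genes. SGI had the lowest for 17 members, and for 33.8% of all tested genes. SMC was held for 2 h and the others for 1 h, so solution and hold time cannot be told apart there, and with 1 library each a difference cannot be set against replicate error.

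Genes around these receptors and ligands were counted from 6 lists, and each gene named from them passed an edgeR adjusted p under 0.05. In a list of basement membrane partners of laminin, 9 of 24 tested were higher and 3 lower in osmolyte-frozen than in DMSO-frozen cells. The list's median log2 change was 0.18. Against fresh cells, 11 were higher and 3 lower (median 0.36), where 19.1% of all tested genes were higher and 21.0% lower. After freezing in DMSO, 4 were higher and 0 lower than in fresh cells (median 0.15). The netrin NTN1 was 3.61-fold higher than in DMSO-frozen cells and FRAS1, a protein of epithelial anchorage, 1.93-fold, while NID2, which links laminin to collagen IV, was 2.08-fold lower, the collagen IV chain COL4A6 1.75-fold and HSPG2, perlecan, 1.40-fold. NTN4, a netrin that binds laminin gamma chains, was 1.51-fold higher after freezing in DMSO than in fresh cells. Of 21 laminin receptors other than integrins, 1 was higher and 8 lower than in DMSO-frozen cells, and 6 and 7 against fresh cells. DMD, dystrophin, was 2.22-fold higher than in DMSO-frozen cells, and UTRN, its relative utrophin, 1.59-fold lower.

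Integrin ligands outside the laminins counted 1 of 31 higher and 9 lower than in DMSO-frozen cells, and 8 and 10 against fresh cells. FBLN5, an elastic fibre protein, was 2.29-fold higher than in DMSO-frozen cells, and FGG, a fibrinogen chain, was 2.46-fold lower. COL6A3, a collagen VI chain, was 1.98-fold lower. Of 31 integrin activators and adaptors, 3 were higher and 7 lower than in DMSO-frozen cells: LIMS2, a partner of integrin-linked kinase, was 2.86-fold higher and FERMT1, kindlin-1, 1.79-fold lower. Against fresh cells 5 activators and adaptors were higher and 14 lower. Focal adhesion signalling counted 3 of 30 higher and 12 lower, with NEDD9, a scaffold, 1.60-fold higher and CAV1, caveolin, 1.78-fold lower, and 4 higher and 10 lower against fresh cells. Membrane partners of integrins counted 3 of 17 higher and 3 lower, and 3 and 6 against fresh cells, with SLC3A2 1.64-fold higher and NRP1, a coreceptor, 1.69-fold lower. For all tested genes the shares were 13.6% and 16.5%, and the lists were not tested. In DMSO-frozen against fresh cells, where 1.25% of all tested genes were higher and 0.617% lower, there were 4 higher and 1 lower among ligands, 1 and 1 in focal adhesion signalling, 0 and 1 among membrane partners, and 0 and 0 among both the activators and the laminin receptors other than integrins.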

How the data were processed

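RNA from 8 libraries of mesenchymal stromal cells was sequenced (3 fresh, 2 frozen in DMSO, 3 frozen in osmolyte solutions), with groups taken from the labels. Per the submitters' processing notes, the authors used CASAVA 1.9, TopHat 12.0.6 and HTSeq with the hg19 genome; their settings were not stated there. In the deposited table the count per gene is a whole number, and every count in the table is even, so intervals for low counts were taken in steps of 2 counts. The authors' deposited RPKM divides reads by gene length and library size, and gene positions are those the file gives for hg19. Counts summed to 64.0% to 73.0% of the library total implied by the RPKM values. This share was 64.0% to 66.9% in osmolyte-frozen, 72.1% to 73.0% in DMSO-frozen and 66.2% to 70.4% in fresh libraries. Its part in the results was not tested.

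After 41 gene IDs repeated with the same values were merged (23354 genes), the quasi-likelihood test of edgeR 4.0.16 (R 4.3.3, robust) was run on the counts, with TMM factors, filterByExpr (15564 genes tested), 1 fit over the 3 groups and Benjamini-Hochberg adjustment at 0.05. Levels are CPM on TMM-scaled library sizes. Poisson intervals are at 95% and cover counting error only. Alternatives were RLE factors, library totals, no filter, counts divided by 2, fits of 2 groups, leaving out each library, DESeq2 1.42.0, counts in place of RPKM for shares, and, chosen after seeing the data, a term for the libraries held 0 h. Members called without overlap between libraries are given with every library's value, and those called with overlap by fold only. From each list and comparison, the genes named are among the 3 largest rises and 3 largest falls called. Members, lists and tests were chosen with earlier results of these data known. Promoter windows came from RefSeq (GRCh38.p14) and their exon annotation from GENCODE. 1 member is counted but its own values are not reported here.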

Additional observations from a re-analysis of the deposited data

How the results depend on the processing

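Over 15 alternatives, 44 calls of a member in a comparison gave 551 values, of which 508 stayed past the threshold, 43 did not and 0 changed direction. In osmolyte-frozen against DMSO-frozen cells the number of members higher ran from 1 to 5, and the number lower from 10 to 12, when 1 library was left out. The lowest, 1, came without the 0 h DMSO-frozen library, when 2144 genes in all were called in place of 4684. In DMSO-frozen against fresh cells the number higher ran from 0 to 3 and the number lower from 2 to 3. In osmolyte-frozen against fresh cells these ran from 8 to 10 and from 12 to 14. The causes were not tested. By counts in place of RPKM, ITGA5 made up 34.2%, 27.9% and 19.5% of integrin alpha in fresh, DMSO-frozen and osmolyte-frozen cells, and ITGA11 23.7%, 31.1% and 51.2%, so that by counts ITGA11 also led in DMSO-frozen cells. No paired analysis by replicate number was possible because the labels carry none. The hold time pairs fresh and DMSO-frozen libraries in part, and a fit with a term for the libraries held 0 h, chosen after seeing the data, called 2 members higher and 3 lower in DMSO-frozen against fresh cells, 5 and 11 in osmolyte-frozen against DMSO-frozen cells, and 10 and 13 in osmolyte-frozen against fresh cells. It ended 3 calls, those of ITGAV and LAMB2 against DMSO-frozen cells and of ITGAX against fresh cells. Members under 3 CPM are limited by their counts.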
